A study of Mus musculus with 84 samples.

Results

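Livers of male mice fed parathion (PT) at 80 ppm were compared directly with livers of mice fed methidathion (MT) at 100 ppm, the highest dose of each organophosphate pesticide (OPP) in these data. A higher PT dose was fed in the exposure study but left out because many of its mice fell ill or died. The groups were chosen by treatment alone and held 7 mice each, so that 14 of 84 mice entered the comparison. The mice were B6C3F1 males of 8 weeks that received the OPP in the diet for 7 days, at an estimated 12 mg/kg/day of PT and 15 mg/kg/day of MT. Since the doses differed, the compound and its dose cannot be told apart. Experimental blocks 1, 3 and 4 gave 2, 3 and 2 mice to either group. RNA of 2 MT mice, replicate 4 in block 3 and replicate 6 in block 4, was isolated at the U.S. EPA, and that of the other 12 mice at Expression Analysis Genomic Services (EA). In the exposure study that supplied the livers, PT lowered body and liver weight and MT did not. Control mice on untreated diet entered no test of the main comparison. Their 7 values are given as ranges only, or for Ache as a mean and SD. They did enter the filter on low counts, the scaling of the CPM values shown and an alternative fit of all 84 mice.

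PT and MT are both thiono OPPs, which P450 enzymes of the liver convert to oxons that inhibit acetylcholinesterase. PT is a diethyl phosphorothioate with a nitrophenyl leaving group, and MT is a dimethyl phosphorodithioate with a methoxy-thiadiazole ring. The liver also clears OPPs with esterases, paraoxonases and conjugating enzymes, and many of its P450 genes respond to the nuclear receptors CAR, PXR and PPAR alpha.

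Transcripts were measured with TempO-Seq, a targeted assay that ligates detector oligos bound side by side on an RNA and counts the products by sequencing. Totals lay between 9273235 and 13229973 counts per mouse, so that 3 counts correspond to between 0.227 and 0.324 CPM (counts scaled to the depth of the library), a limit that covers counting error only. Totals did not differ detectably between the groups (exact permutation test, two-sided, p = 0.343). The EPA libraries stood apart, with 15306 and 15538 genes with a count, against 13850 to 14472 in the other 12. PT replicate 1 was the mouse least like its group, with a median correlation of 0.933 with the other PT mice, against 0.961 to 0.979 for the other PT mice and 0.982 to 0.986 for the MT mice. Hepatocyte markers such as Alb and Apoa1 made up 70886 to 95769 CPM at PT 80 ppm and 67648 to 81604 CPM at MT 100 ppm. In whole liver, fewer cells of a type and less RNA per cell cannot be told apart.

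Of 10415 genes tested with edgeR, 93 (0.893%) were called, that is, they had an adjusted p under 0.05 and at least a 2-fold difference. Of these, 43 (0.413%) were higher at PT 80 ppm and 50 (0.48%) were higher at MT 100 ppm. Among the EA mice alone, 54 genes were called, 22 (0.211%) higher at PT 80 ppm and 32 (0.307%) higher at MT 100 ppm, and 53 of them were among the 93. All 93 kept their direction within each of the 3 blocks among the EA mice, of which block 4 held 1 at MT 100 ppm. Because the genes were called in these same mice, this is no separate support, and the share over all genes was not counted. The ranges of the groups did not overlap for 26 of the 93, against 80 (0.768%) of all genes tested. Of the 26, 10 were higher at PT 80 ppm and 16 at MT 100 ppm, while over all genes tested 32 (0.307%) lay wholly above at PT 80 ppm and 48 (0.461%) at MT 100 ppm. Values at the far end of the PT range came mostly from 2 mice. PT replicate 1 was the highest PT mouse for 30 of the 43 genes higher at PT 80 ppm and replicate 2 for 10, and both belong to block 1. Among the 50 genes higher at MT 100 ppm, these mice were the lowest PT mouse for 22 and 21. Without block 1, 1 gene was called, Cyp2c55, so that of every list described below no other member was called without that block. The number called also fell without block 3, to 11, and without block 4, to 5. It was 71 without PT replicate 1 and 51 without PT replicate 2. Without MT replicates 1 and 2, which also belong to block 1, it was 21 and 12. The part of the block in these results was not tested beyond these counts.

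**Figure D1:**
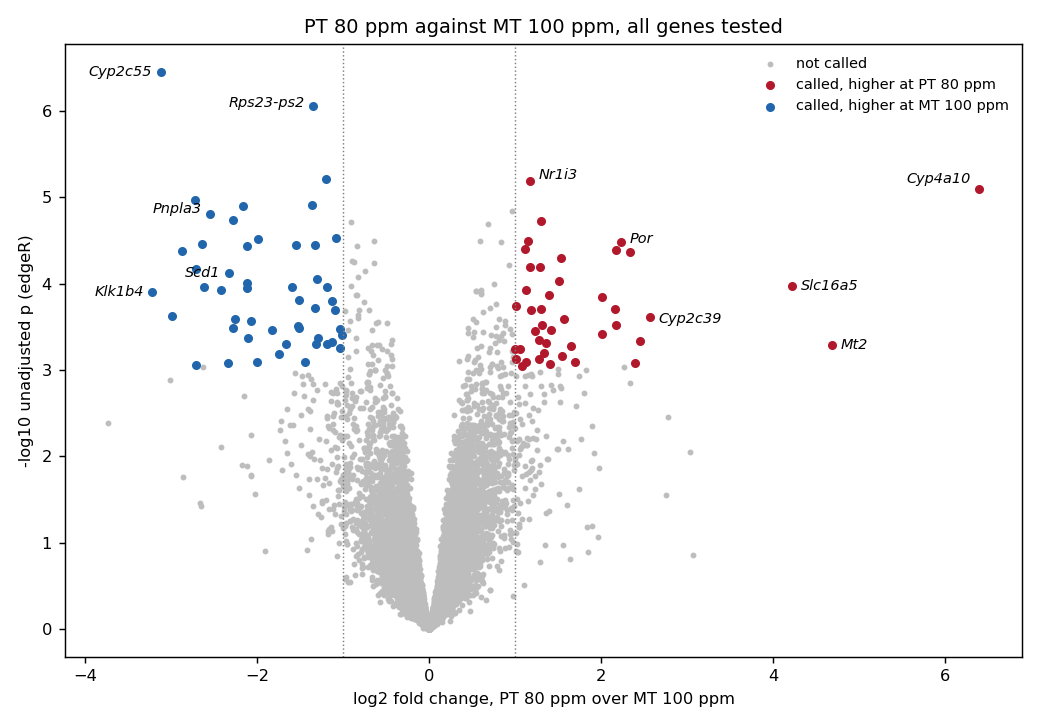
Each point is 1 of 10415 genes, with the fitted log2 fold change of PT 80 ppm over MT 100 ppm on the x axis and the negative log10 of the unadjusted edgeR p on the y axis. The 43 called genes higher at PT 80 ppm reach a log2 fold change of 6.39 (Cyp4a10), and among the 50 higher at MT 100 ppm Cyp2c55 had the smallest p; dotted lines mark 2-fold.

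The P450 genes split between the OPPs. Of the listed Cyp2b, Cyp2c and Cyp3a enzymes with their receptors, 22 genes were tested, and no Cyp2b gene was among them. Of these 22, 4 were higher at PT 80 ppm and 2 at MT 100 ppm. The 4 were Cyp2c37, Cyp2c39, Nr1i3 and Por, of which Nr1i3 and Por are not P450 genes. The median log2 fold change was 0.50, against 0.01 over all genes tested. The same counts, 4 and 2, were found in the EA mice alone, against 0.893% of all genes called in all mice. The counts fell to 2 and 2 without MT replicate 1 and to 1 and 1 without MT replicate 2, and to 1 and 0 without block 3 and 0 and 1 without block 1 or block 4. Members of the Cyp2c cluster on chromosome 19 went in opposite directions. Reads could be split between these similar genes in the authors' counting, which leaves single members uncertain.

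Cyp2c39 (chr19:39499306-39558011, GRCm39), an arachidonic acid epoxygenase, lay between 25.7 and 187 CPM at PT 80 ppm with a median of 55.99 CPM. At MT 100 ppm it lay between 3.26 and 18.6 CPM with a median of 11.5 CPM. Every PT mouse was above every MT mouse, and the log2 fold change was 2.57 ± 0.52 (SE, n = 7 and 7; edgeR adjusted p = 0.0313). Control mice held 2.88 to 18.8 CPM. Within the blocks the difference in mean log2(CPM + 1) among the EA mice was 4.47 in block 1, 1.67 in block 3 and 1.35 in block 4. At MT 100 ppm these means rest on 2, 2 and 1 mice. Cyp2c37 had a log2 fold change of 1.51 ± 0.27 (SE; edgeR adjusted p = 0.0225), with ranges of 5.599 to 30.6 CPM at PT 80 ppm and 2.34 to 6.08 CPM at MT 100 ppm that overlapped.

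Cyp2c55 (chr19:38995462-39031144) showed the smallest p of all genes, in the other direction. It lay between 0.652 and 2.49 CPM at PT 80 ppm, with a median of 1.53 CPM, and between 7.26 and 22.03 CPM at MT 100 ppm, with a median of 15.6 CPM. The groups did not overlap, and the 7 control mice, at 0.777 to 3.75 CPM, lay within or near the PT range. The log2 fold change was -3.12 ± 0.33 (SE; edgeR adjusted p = 0.00366). Among the EA mice the difference was -2.37, -2.81 and -2.23 in blocks 1, 3 and 4, with 1 MT mouse in block 4. Cyp2c29 (chr19:39257849-39319157), an abundant P450 gene, lay between 1562 and 3501 CPM at PT 80 ppm and between 3504 and 7383 CPM at MT 100 ppm. The ranges met without overlapping, both lay above the 581 to 1557 CPM of the control mice, and the log2 fold change was -1.13 ± 0.22 (SE; edgeR adjusted p = 0.0253).

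Nr1i3 and Por, a receptor and a reductase of the list, were higher at PT 80 ppm. Nr1i3 (chr1:171041506-171048270) encodes CAR, the receptor through which phenobarbital acts. It lay between 490 and 1013 CPM at PT 80 ppm, with a median of 608 CPM, and between 257 and 362 CPM at MT 100 ppm, with a median of 298 CPM. No mice of the groups overlapped, and the log2 fold change was 1.17 ± 0.16 (SE; edgeR adjusted p = 0.0148). Por, the reductase that passes electrons to all microsomal P450 enzymes, had a log2 fold change of 2.23 ± 0.36 (SE; edgeR adjusted p = 0.0148). Its PT values were 848 and 784 CPM in the mice of block 1 and 47.6 to 170 CPM in the other 5, against 24.7 to 125 CPM at MT 100 ppm, so that the ranges overlapped. Nr1i2, which encodes PXR, passed the adjusted p but not the fold limit, with a log2 fold change of 0.55 (95% interval 0.32 to 0.78; edgeR adjusted p = 0.0226). Cyp3a11, a classical PXR target, was not called, with a log2 fold change of -0.16 and a 95% interval of -0.74 to 0.43.

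**Figure D2:**
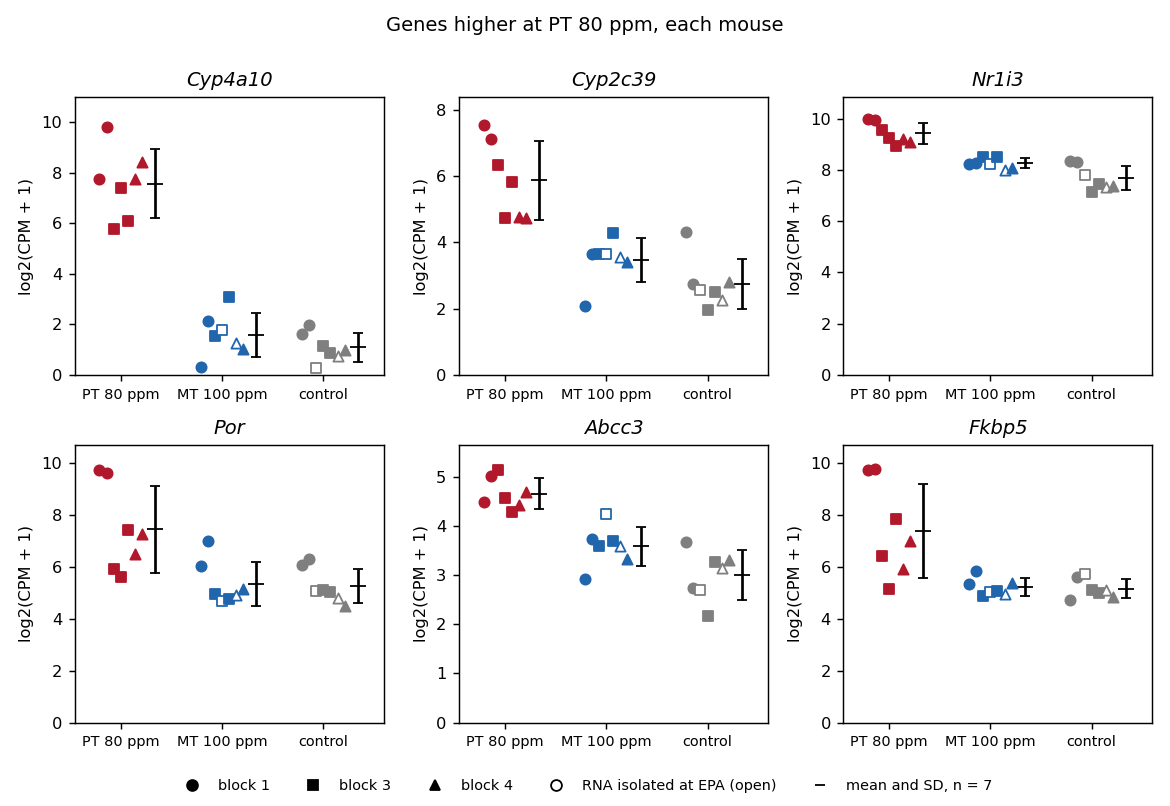
Each point is 1 mouse, with log2(CPM + 1) on the y axis and its group on the x axis; shapes mark the block, open symbols RNA isolated at EPA, and bars the mean and SD of 7 mice. For Cyp4a10, Cyp2c39, Nr1i3 and Abcc3 all PT mice lie above all MT mice, and for Por and Fkbp5 the PT mice of block 1 lie far above the others.

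The difference of the largest size belonged to a fatty acid hydroxylase. Cyp4a10 (chr4:115375461-115390849), a target of PPAR alpha, lay between 53.3 and 890 CPM at PT 80 ppm, with a median of 216 CPM. At MT 100 ppm it lay between 0.245 and 7.45 CPM with a median of 1.94 CPM, close to the 0.221 to 2.99 CPM of the control mice. No PT mouse overlapped an MT mouse, and the log2 fold change was 6.39 ± 0.91 (SE; edgeR adjusted p = 0.0148). Cyp4a10 has close paralogs, so its reads could be shared with them. Of 52 tested genes of fatty acid oxidation and PPAR alpha targets, 2 were called, both higher at PT 80 ppm, against 0.893% of all genes. The median log2 fold change was 0.07, but -0.07 without MT replicate 7 and -0.06 without PT replicate 2, and 0 members were called without MT replicate 2. The second was the fatty acid transporter Slc27a1, at 2.40 to 5.71 CPM against 1.59 to 2.12 CPM (log2 fold change 1.12 ± 0.19 (SE), edgeR adjusted p = 0.0149). Cpt1a, which admits fatty acids to mitochondria, had a log2 fold change of 0.20 (95% interval -0.40 to 0.80). With the filter on low counts set over the 14 mice, 4 of 54 members were called, all higher at PT 80 ppm. Without that filter 4 of 59 were called higher at PT 80 ppm and 1 at MT 100 ppm. With a median count above 50, 0 of 43 were called.

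Pnpla3, Scd1 and Elovl5, genes of fatty acid and triglyceride metabolism, were higher at MT 100 ppm. Of 30 tested lipogenesis genes, 3 were called, all higher at MT 100 ppm, and 22 had a negative log2 fold change, with a median of -0.56, against 0.893% of all genes called. In the EA mice alone the same number, 3, was called. It was 1 without MT replicate 2 or 5, 2 without MT replicate 1 or PT replicate 2 or 5, 4 without MT replicate 3, 5 without PT replicate 3, and 0 with any of the blocks left out. Pnpla3 (chr15:84051943-84073723), a lipase of lipid droplets, lay between 1.24 and 5.84 CPM at PT 80 ppm and between 7.18 and 56.3 CPM at MT 100 ppm, without overlap (log2 fold change -2.54 ± 0.39 (SE), edgeR adjusted p = 0.0148). The control mice, at 9.67 to 32.1 CPM, also lay above the PT range. Scd1 (chr19:44382894-44399154), the desaturase that makes oleate, lay between 16.9 and 225 CPM at PT 80 ppm and between 163 and 593 CPM at MT 100 ppm. Of the 7 PT mice, replicate 3 alone reached the MT range, and the log2 fold change was -2.32 ± 0.41 (SE; edgeR adjusted p = 0.0197). Elovl5, a fatty acid elongase, had a log2 fold change of -1.33 ± 0.26 (SE; edgeR adjusted p = 0.0276). Fasn, the fatty acid synthase, was not called, with a log2 fold change of -0.44 and a 95% interval of -1.06 to 0.17.

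Of 25 tested genes of cholesterol synthesis, 24 had a negative log2 fold change and the median was -0.72, against 0.01 over all genes tested. However, 1 was called, Pmvk, the phosphomevalonate kinase, against 0.893% of all genes called. Without block 1 the median was -0.34, with 21 of 25 negative. Pmvk lay between 14.9 and 109 CPM at PT 80 ppm and between 58.95 and 133 CPM at MT 100 ppm (log2 fold change -1.18 ± 0.26 (SE), edgeR adjusted p = 0.0389), and it was not called in the EA mice alone. Fabp5, a fatty acid binding protein outside both lists, lay between 2.82 and 23.4 CPM at PT 80 ppm and between 16.5 and 67.4 CPM at MT 100 ppm (log2 fold change -2.61 ± 0.48 (SE), edgeR adjusted p = 0.0226).

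**Figure D3:**
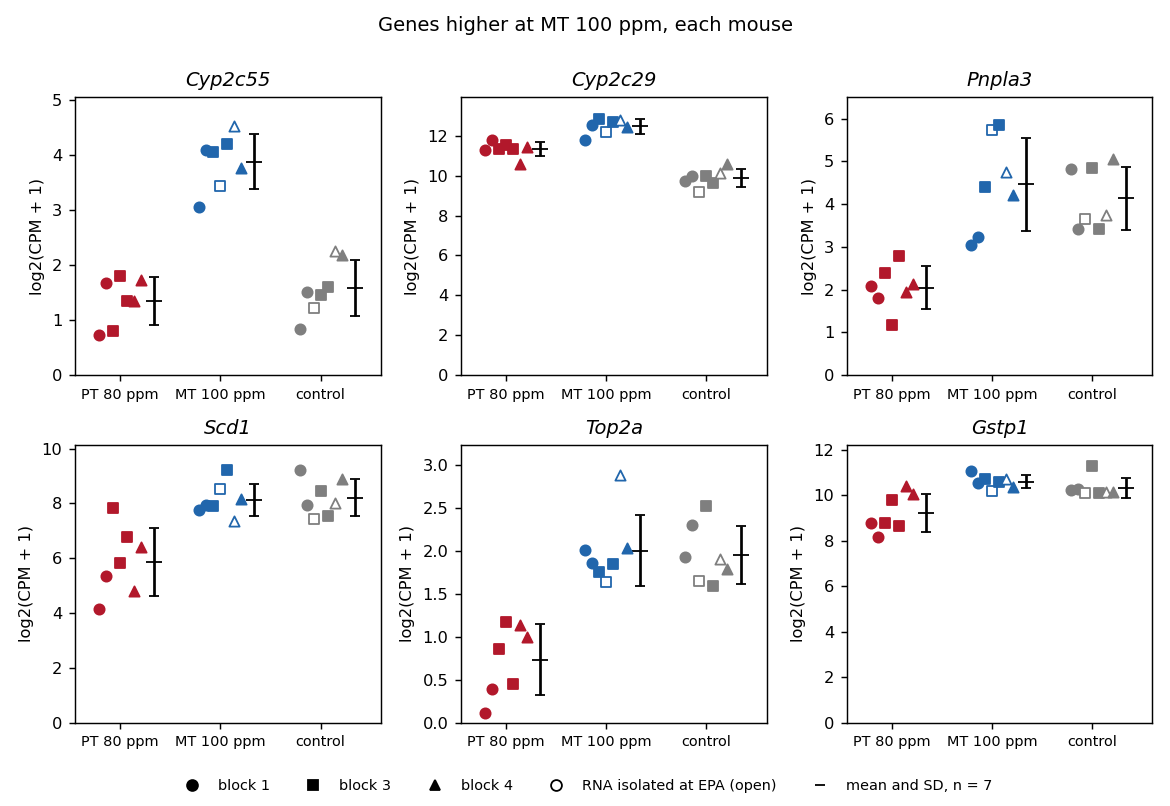
Each point is 1 mouse, with log2(CPM + 1) on the y axis and its group on the x axis; shapes mark the block, open symbols RNA isolated at EPA, and bars the mean and SD of 7 mice. MT mice lie above PT mice without overlap for Cyp2c55, Cyp2c29, Pnpla3 and Top2a, while the ranges of Scd1 and Gstp1 overlap.

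Abcc3, Slco1a4, Klb and Abcg5 were higher at PT 80 ppm. Of 34 tested genes of bile acid synthesis and transport, 4 were called, all higher at PT 80 ppm, with a median log2 fold change of 0.31, and 3 were called in the EA mice alone, against 0.893% of all genes called in all mice. The number was 1 without MT replicate 1 or 2, 2 without MT replicate 3 and 6 without MT replicate 7. Abcc3, which exports bile acid and drug conjugates to blood, lay between 18.6 and 34.4 CPM at PT 80 ppm and between 6.60 and 17.999 CPM at MT 100 ppm. The groups did not overlap, and the log2 fold change was 1.30 ± 0.20 (SE; edgeR adjusted p = 0.0148). Slco1a4, an uptake transporter, lay between 21.9 and 246 CPM against 10.5 and 25.0 CPM, and PT replicate 4 fell within the MT range (log2 fold change 2.17 ± 0.36 (SE), edgeR adjusted p = 0.0149). Klb, the co-receptor of the hormones FGF15 and FGF21, and Abcg5, a sterol exporter, had log2 fold changes of 1.18 and 1.32, and Abcg5 was not called in the EA mice alone. Cyp7a1, the rate-limiting enzyme of bile acid synthesis, had a log2 fold change of 2.26 and missed the call with an edgeR adjusted p of 0.0503.

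Of 37 tested genes known to respond to glucocorticoids or fasting, 34 had a positive log2 fold change, with a median of 0.63, against 0.01 over all genes tested. The 4 called, against 0.413% of all genes called higher at PT 80 ppm, were Mt2, Fkbp5, Zbtb16 and Slc7a2. In the EA mice alone 0 were called, as also without MT replicate 1, 2 or 3. Without PT replicate 1, 1 was called, Fkbp5, and without block 1 the median was 0.23, with 27 of 37 positive. Mt2, a metallothionein that binds zinc, lay at 653, 292 and 384 CPM in PT replicates 1, 2 and 5 and between 5.45 and 51.8 CPM in the other 4, against 2.25 to 14.9 CPM at MT 100 ppm. The groups overlapped, the control mice spanned 1.77 to 144 CPM, and the log2 fold change was 4.68 ± 1.03 (SE; edgeR adjusted p = 0.0390). Fkbp5, a chaperone of the glucocorticoid receptor, was at 843 and 856 CPM in the PT mice of block 1 and at 34.1 to 225 CPM in the other 5, against 28.01 to 56.3 CPM at MT 100 ppm (log2 fold change 2.45 ± 0.53 (SE), edgeR adjusted p = 0.0378).

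Mat1a, which makes S-adenosylmethionine, was the 1 called gene of 47 tested in the urea cycle and amino acid list. It lay between 1805 and 10251 CPM at PT 80 ppm and between 937 and 1685 CPM at MT 100 ppm, without overlap (log2 fold change 1.42 ± 0.30 (SE), edgeR adjusted p = 0.0338), and it was not called in the EA mice alone. Of 45 acute phase and complement genes, 2 were called, both higher at PT 80 ppm: the transcription factor Cebpd and the interleukin receptor Il1r1, with log2 fold changes of 1.54 and 1.18. In the EA mice alone Il1r1 was called and Cebpd was not, and 0 of the list were called without MT replicate 1, 2, 3 or 5 or without PT replicate 7. Without block 3, 2 members were called, both higher at MT 100 ppm. Cebpd was at 55.4 and 25.2 CPM in the PT mice of block 1 and at 5.05 to 9.35 CPM in the other 5, against 2.61 to 7.82 CPM at MT 100 ppm. Of 17 circadian clock genes, Noct, a circadian phosphatase, was higher at PT 80 ppm and Npas2, a partner of Bmal1, higher at MT 100 ppm, with log2 fold changes of 1.69 and -2.10. Npas2 was not called in the EA mice alone. Among all genes tested 0.893% were called, the share to set beside each list of this paragraph. The time of day at which each liver was taken was not analysed here.

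Cdc20, Prc1, Top2a and Aurkb, genes of mitosis, were higher at MT 100 ppm, at low counts. Of 27 tested genes of the cell cycle and DNA replication, 4 were higher at MT 100 ppm and 1 at PT 80 ppm, against 0.48% and 0.413% of all genes. In the EA mice alone these numbers were 3 and 1. They were 0 and 0 without MT replicate 2, 2 and 0 without MT replicate 1 and 2 and 1 without MT replicate 5. With the filter on low counts set over the 14 mice they were 2 and 1, and with a median count above 50 they were 0 and 1. Cdc20, which activates the anaphase-promoting complex, lay between 0 and 0.413 CPM at PT 80 ppm, near the limit of 3 counts, and between 0.626 and 4.25 CPM at MT 100 ppm (log2 fold change -2.87 ± 0.48 (SE), edgeR adjusted p = 0.0149). Prc1, which bundles microtubules of the spindle midzone, lay between 0 and 0.661 CPM against 1.01 and 3.33 CPM (log2 fold change -2.63 ± 0.43 (SE), edgeR adjusted p = 0.0148). Top2a, the topoisomerase that untangles chromosomes, lay between 0.0815 and 1.24 CPM against 2.11 and 6.38 CPM (log2 fold change -2.12 ± 0.39 (SE), edgeR adjusted p = 0.0226). In none of these 3 genes did the groups overlap, and the control mice, at 0.368 to 2.08 CPM for Cdc20 and 2.02 to 4.72 CPM for Top2a, reached into the MT range. Aurkb, a kinase of chromosome segregation, was the fourth, and it was not called in the EA mice alone. Tk1, the thymidine kinase of S phase, went the other way, at 11.7 to 51.2 CPM against 7.17 to 11.6 CPM without overlap (log2 fold change 1.30 ± 0.25 (SE), edgeR adjusted p = 0.0276). Pcna and Mcm6, which act in DNA replication, were not called, and Mcm2 passed the adjusted p but not the fold limit (log2 fold change -0.87). Dtl, Shcbp1, Kifc1, Knstrn and Pbk, outside the list and chosen after their values were seen, were also called higher at MT 100 ppm, with log2 fold changes between -2.34 and -1.83, and Kifc1 and Pbk were not called in the EA mice alone.

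Promoters of Cdc20, Prc1 and Top2a are shown because cell cycle genes often carry the CHR and CCAAT elements, and that of Mt2 for its metal response element (MRE). The sequences are from RefSeq (GRCm38.p6, another build than the gene coordinates above), 150 bases up to the start of the gene, 5′ to 3′ in the direction of the gene, for the first start listed. Capitals mark TTTGAA or TTCGAA (CHR) and CCAAT in the first 3 promoters and TGCACNC or TGCGCNC (MRE) in Mt2, on either strand. The positions are chr4:118437344-118437493 (minus strand) for Cdc20, chr7:80294301-80294450 (plus) for Prc1, chr11:99024190-99024339 (minus) for Top2a and chr8:94172468-94172617 (plus) for Mt2.
Cdc20: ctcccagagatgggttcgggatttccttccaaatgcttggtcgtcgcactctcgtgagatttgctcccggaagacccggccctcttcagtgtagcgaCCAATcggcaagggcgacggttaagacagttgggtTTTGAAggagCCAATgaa
Prc1: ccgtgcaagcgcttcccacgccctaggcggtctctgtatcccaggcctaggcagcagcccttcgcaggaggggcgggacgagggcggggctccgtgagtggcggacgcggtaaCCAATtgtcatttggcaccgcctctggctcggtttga
Top2a: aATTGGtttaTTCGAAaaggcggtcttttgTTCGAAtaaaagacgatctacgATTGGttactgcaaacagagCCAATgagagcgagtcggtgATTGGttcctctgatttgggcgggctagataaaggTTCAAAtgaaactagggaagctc
Mt2: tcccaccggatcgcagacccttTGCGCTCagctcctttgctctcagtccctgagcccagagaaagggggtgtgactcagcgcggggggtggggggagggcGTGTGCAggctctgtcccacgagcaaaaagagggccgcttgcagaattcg
The genes and the motifs were chosen after the genes' values were seen, and a match is a description of letters, not of a bound factor. Cdc20 held 1 CHR and 2 CCAAT, Top2a 3 and 4, and Mt2 held 2 MRE in this window. Prc1 held 1 CCAAT and 0 CHR; the other start listed for Prc1 holds 1 CHR, which shows how much the count depends on the start.

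Over the 250 bases before any listed start, CHR stood in 15.1% of the 7679 tested genes with a promoter entry and in 8 of 35 (22.9%) of those higher at MT 100 ppm. CCAAT stood in 40.5% of all and in 21 of 35, and among the cell cycle genes in 15 of 20. MRE stood in 34.2% of all and in 9 of 30 of the genes higher at PT 80 ppm. Both other motifs searched were rare. The direct repeat DR1 to which PPAR alpha binds was searched as AGGTCA repeated with 1 base between. It stood in 0.0391% of all promoters and in 0 of the called genes with a promoter entry. Those with an entry were 30 of the 43 genes higher at PT 80 ppm and 35 of the 50 higher at MT 100 ppm. Cyp4a10 and Scd1 had no promoter entry and were not searched. TCACNCCAC, the sterol element (SRE), stood in 1.45% of all and in 1 called gene, Pla2g12a.

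Of the other genes named by size, Slc16a5, a monocarboxylate transporter, was at 33.6, 37.8 and 24.9 CPM in PT replicates 1, 2 and 5 and at 2.10 to 5.39 CPM in the other 4, against 0.245 to 1.49 CPM at MT 100 ppm, without overlap (log2 fold change 4.22 ± 0.78 (SE), edgeR adjusted p = 0.0226). Eif4ebp3, a repressor of translation, Mfsd2a, a lysophospholipid transporter, Ildr2 and Cep152, a centriole protein, also stood higher in the PT mice; their log2 fold changes were 2.34, 2.16, 2.01 and 1.53. Fmo1, a flavin monooxygenase that can oxidise sulphur in pesticides, lay between 125 and 545 CPM against 61.6 and 166 CPM (log2 fold change 1.56 ± 0.32 (SE), edgeR adjusted p = 0.0314). Its highest MT values, 148 and 166 CPM, were those of the EPA mice.

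Higher at MT 100 ppm were Klk1b4, a kallikrein, and the acetyltransferase genes Nat8f5 and Nat8f7, with log2 fold changes of -3.22, -2.72 and -2.71. These belong to families of similar genes, so their reads could be split. Klk1b4 lay at 0 to 0.408 CPM against 0.470 to 1.22 CPM, near the limit of 3 counts. Its log2 fold change ran from -5.08 to -0.82 over the alternatives that gave it a value. Aqp8, a water channel, lay between 4.89 and 203 CPM at PT 80 ppm and between 90.4 and 538 CPM at MT 100 ppm (log2 fold change -2.28 ± 0.35 (SE), edgeR adjusted p = 0.0148). Crybb3, a crystallin, and Gm6166, a gene model, had log2 fold changes of -2.42 and -2.26.

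Of 33 tested esterases and OPP hydrolases, 1 was called, against 0.893% of all genes. This was Ces2e, a carboxylesterase, at 30.01 to 316 CPM at PT 80 ppm and 380 to 568 CPM at MT 100 ppm without overlap (log2 fold change -1.67 ± 0.36 (SE), edgeR adjusted p = 0.0389). It was not called in the EA mice alone. Pon1, the paraoxonase that hydrolyses oxons, had a log2 fold change of 0.43 (95% interval 0.10 to 0.75; edgeR adjusted p = 0.130), and Bche, butyrylcholinesterase, one of 0.61 (95% interval 0.26 to 0.97; edgeR adjusted p = 0.0646). Ces2a had a log2 fold change of -0.01 (95% interval -0.33 to 0.30), while the interval of Ces1g, from -1.13 to 0.97, leaves room for a 2-fold difference. Of 44 conjugation enzymes, Gstp1 and Gstp2 were called, both higher at MT 100 ppm with log2 fold changes of -1.51 and -1.52. Their reads are hard to tell apart, and neither was called in the EA mice alone. Of 23 other P450 and flavin monooxygenase genes, Fmo1 was higher at PT 80 ppm and Cyp2d40, which was not called in the EA mice alone, at MT 100 ppm (log2 fold change -1.29). Of the 23, 11 were positive and 12 negative (median -0.10). Cyp1a2 had a log2 fold change of 0.09 (95% interval -0.58 to 0.76). Cyp2e1 passed the adjusted p but not the fold limit, at 0.96 (95% interval 0.64 to 1.29, edgeR adjusted p = 0.0148). Summed over 26 members, the list lay between 19536 and 31017 CPM at PT 80 ppm and between 11994 and 18074 CPM at MT 100 ppm. A sum weighs the most abundant members most and need not follow the median. The Cyp2b, Cyp2c and Cyp3a list, with a positive median, summed over 31 genes to 8741 to 16407 CPM at PT 80 ppm. At MT 100 ppm its sum was 13494 to 18892 CPM.

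Ache, the target of the OPPs, was barely detected in liver, with 2 to 8 counts per mouse at PT 80 ppm and 1 to 8 at MT 100 ppm. Its level was 0.420 ± 0.175 CPM (SD, n = 7) and 0.331 ± 0.215 CPM (SD, n = 7). The difference of 0.10 on the log2(CPM + 1) scale had a 95% interval of -0.14 to 0.34. It was not detectable at this depth (exact permutation test, two-sided, p = 0.368). Control mice held 0.513 ± 0.404 CPM (SD, n = 7). The paper reports a rise of the transcript in mouse liver under each OPP, judged over its dose levels. Such a rise over control was not tested here.

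Of 32 tested genes of the growth hormone axis and male-biased liver genes, 29 had a negative log2 fold change (median -0.76) and 1 was called, Gstp1, while of 13 female-biased genes 11 were positive (median 0.72) and 0 were called. Of 38 interferon-stimulated genes, 35 were negative (median -0.41) and 0 were called. Without PT replicate 1 this median was -0.16, and without block 1 it was -0.05, with 22 of 38 negative. Without block 1 the median of the female-biased genes was 0.34. Of 36 genes of the unfolded protein and heat shock response, 18 were positive and 18 negative (median 0.00). The lists of p53 targets, heme synthesis and immediate early genes held 0 called genes, and that of Nrf2 targets held 1, Abcc3. Among all genes tested 0.893% were called and the median log2 fold change was 0.01.

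**Figure D4:**
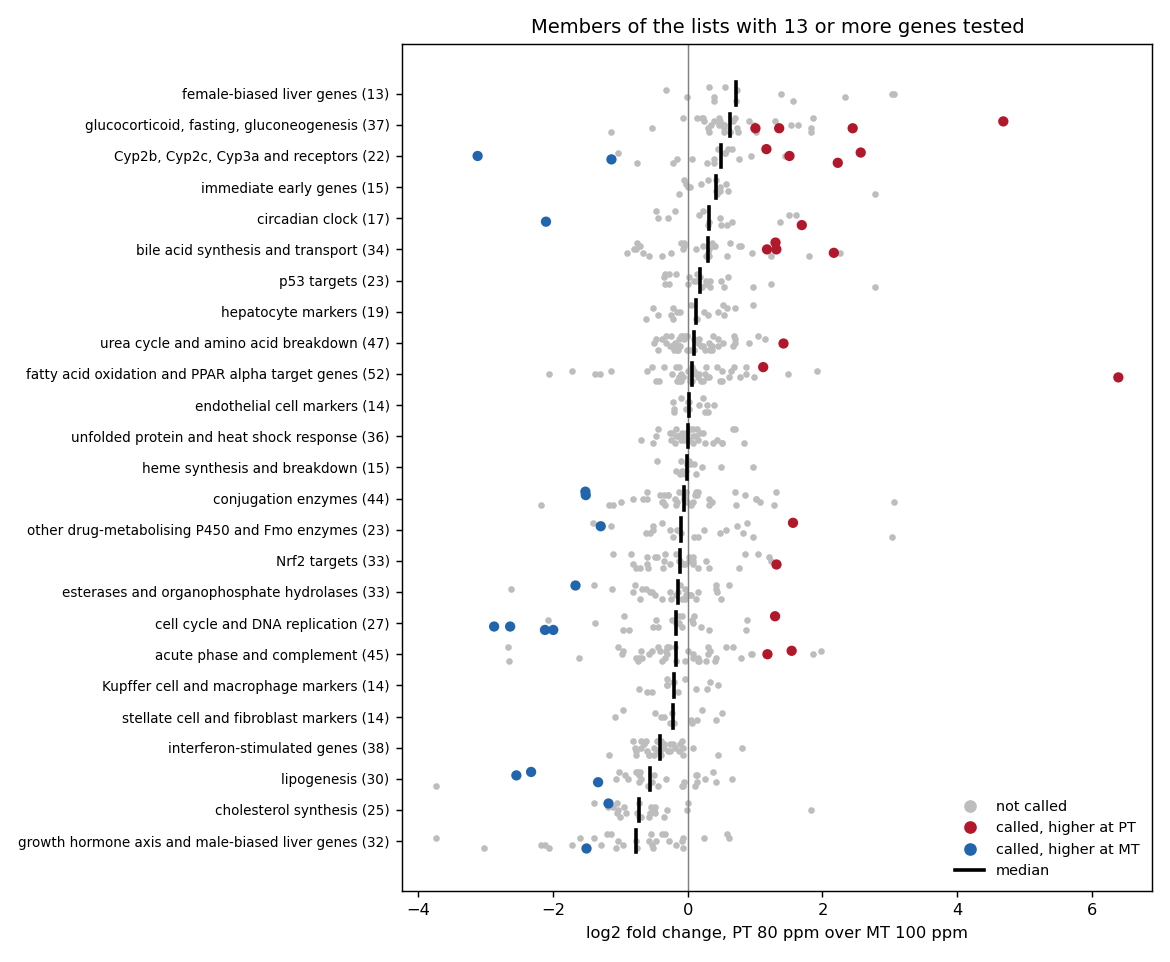
Each point is 1 tested member of a list with at least 13 genes tested, with its log2 fold change of PT 80 ppm over MT 100 ppm on the x axis, the number tested in parentheses, and black bars for the medians. Median values run from -0.76 (growth hormone axis and male-biased genes) to 0.72 (female-biased genes), and most members were not called.

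No marker gene of hepatocytes or of the other cell types was called. All 6 tested red blood cell markers were lower at PT 80 ppm (median -0.79), with a summed level of 51.5 to 149 CPM against 105 to 175 CPM, and all 6 tested T, B and NK cell markers were lower (median -0.40), at 8.40 to 40.7 CPM against 21.9 to 35.2 CPM. Without PT replicate 1 the T, B and NK median was -0.21 with 5 of 6 lower, and without block 1 it was 0.01 with 3 lower and 3 higher, while the red blood cell median was -0.33 without block 1. Kupffer cell and macrophage markers summed to 148 to 338 CPM against 223 to 304 CPM, endothelial markers to 539 to 736 CPM against 600 to 647 CPM, and stellate markers to 315 to 415 CPM against 340 to 422 CPM. The part of these cells in the results above was not tested.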

How the data were processed

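Liver RNA of 84 mice in 12 groups was measured with TempO-Seq, and the 14 mice at PT 80 ppm and MT 100 ppm were compared. The authors trimmed and aligned reads to mm39 with STAR and deposited estimated counts per gene from Partek, without normalization, which can split a read between genes; 18.7% of the values were not whole. The adjusted log values the authors also deposited were not used. Estimated counts were rounded, and genes with a median count above 8 over all 84 mice were kept (10415 of 17695). Groups, blocks and RNA isolators came from the sample labels, and replicate numbers follow accession order.

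Groups were compared by edgeR's quasi-likelihood test (version 4.0.16), with TMM scaling and with block and RNA isolator as covariates and 9 residual degrees of freedom. The p-values were adjusted by Benjamini-Hochberg over all genes, and genes were called at an adjusted p under 0.05 and at least 2-fold. Positive log2 fold changes mean higher at PT 80 ppm. No PT mouse was isolated at EPA, so the isolator is estimated from the MT mice alone. CPM values given per mouse are TMM-normalised; those of Ache use total counts. The SE is the log2 fold change divided by the root of the F statistic, and 95% intervals use t with 9 degrees of freedom; that of Ache inverts the exact permutation test. Alternatives were run with limma 3.58.1 and DESeq2 1.42.0 under R 4.3.3; Python 3.11.15, numpy 2.4.6, pandas 2.3.3, scipy 1.17.1 and matplotlib 3.10.9 served for the rest. On simulated data for this comparison with 10415 genes, edgeR recovered 94 of 100 genes changed by a log2 of 1.5 and 100 of 100 changed by 2.5, with 6 false calls. Simulated counts held no block effect, no isolator effect and no mouse that stood apart from its group. They therefore cannot show how reliable calls are that depend on block 1 or on single mice.

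Named genes were the 12 largest called differences in each direction that were also called in the EA mice, called members of 30 gene lists, and Ache. The groups, lists and tests were chosen with earlier results of these data known. Lists are described by counts and medians without a set test. The genes given with 95% intervals, the promoters and the 5 motifs were picked after the values were seen. Gene names and coordinates are from a GENCODE annotation of GRCm39. Without molecular identifiers, reads copied by PCR cannot be told from separate molecules. Mice were housed in groups, and whole cages were assigned to a treatment, so mice of a group can share a cage. Which mice did is not given in the sources used here, cage entered no model, and the p-values measure the spread between these mice.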

Additional observations from a re-analysis of the deposited data

Results flagged for a closer look

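The check covered each named gene and called list member, Ache, the total count, and Dtl, Shcbp1, Kifc1, Knstrn and Pbk, added after their values were seen. For each, the highest and lowest mouse of each group of 7 was compared with its nearest neighbour on the log2(CPM + 1) scale, total counts unscaled. The gap, as a share of the group's range, exceeded Dixon's 95% critical value for 7 samples in 7 of 108 groups, where chance gives about 1 in 20. At MT 100 ppm these were Cyp2c39 (0.600, lowest in replicate 1 at 3.26 CPM), Ildr2 (0.582, lowest in replicate 5 at 0.372 CPM) and Top2a (0.681, highest in replicate 6, an EPA mouse, at 6.38 CPM). At PT 80 ppm they were Klk1b4 (0.749, highest in replicate 3 at 0.408 CPM), Cyp2c29 (0.572, lowest in replicate 6 at 1562 CPM), Cyp2d40 (0.580, lowest in replicate 1 at 3.10 CPM) and Pbk (0.644, highest in replicate 4 at 0.933 CPM). The flags fell on 7 different mice, 1 each.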

How the results depend on the processing

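Over 30 alternatives 52 genes gave 1528 values, since some had no value under 1 or 2 of them. These were the named genes without Ache, and with Dtl, Shcbp1, Kifc1, Knstrn and Pbk, which were added after their values were seen. All 1528 kept the direction, and 467 lost the call. This is no separate support, since the genes were picked because they were called in these same mice. The largest differences in each direction had also to be called in the EA mice, a fit that is itself among the alternatives. With no fold limit the main fit is used again. The number of called genes varied widely. It was 54 in the EA mice alone (22 higher at PT 80 ppm, 32 at MT 100 ppm), 36 with no covariate (15 and 21), 254 with all 84 mice in 1 model (144 and 110), 210 with DESeq2 (97 and 113), 45 with a median count above 50 (20 and 25) and 189 with no fold limit (96 and 93). With total counts only it was 125, split 82 and 43 against 43 and 50 with TMM, and the median log2 fold change of all genes was 0.13 in place of 0.01. Without blocks 1, 3 and 4 in turn it was 1 (0 and 1), 11 (5 and 6) and 5 (2 and 3). The causes were not tested, except that fewer mice or genes entered some fits.

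Leaving out each mouse gave 12 to 132 called genes, 3 to 72 higher at PT 80 ppm and 9 to 76 higher at MT 100 ppm. The count fell to 21, 12, 45, 54, 44 and 54 without MT replicates 1 to 6. It fell to 71, 51, 54, 89 and 62 without PT replicates 1, 2, 5, 6 and 7. It rose to 95 and 128 without PT replicates 3 and 4 and to 132 without MT replicate 7. With 1 of the EPA mice left out, the other is fitted exactly, so these fits equal that of the EA mice. The 10 genes called in all 14 of these fits were Cyp2c55, Nat8f5, Pnpla3, Aqp8, Col5a3, Nr1i3, Abcc3, Shcbp1, Tfpi2 and Rps23-ps2. Without the filter on low counts the count was 129 (64 and 65), and with block alone, both limma fits, DESeq2 size factors and the filter over the 14 mice it lay between 87 and 103. The Ache difference missed the threshold with a pseudocount of 0.5 (p = 0.344) and in the EA mice (p = 0.644; both exact permutation tests). No paired analysis was possible because the labels give no replicate numbers shared between groups; block is already a covariate.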

Other observations

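Genes outside the lists and the naming rule also passed the call, and were picked here after their values were seen. Rps23-ps2, a ribosomal pseudogene whose reads may belong to its parent gene, lay between 44.7 and 77.7 CPM at PT 80 ppm and between 118 and 219 CPM at MT 100 ppm, without overlap (log2 fold change -1.35, edgeR adjusted p = 0.00456). Slc16a7, a monocarboxylate transporter like Slc16a5, lay between 59.8 and 141 CPM at PT 80 ppm and between 34.3 and 57.2 CPM at MT 100 ppm (log2 fold change 1.15, edgeR adjusted p = 0.0149). Olig1, a transcription factor known from oligodendrocytes, had a log2 fold change of -1.99.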
